A study of Mus musculus with 7 samples.

Results

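The enzyme genes of methionine, cysteine, serine and one-carbon metabolism were examined in islets of mice that had lost Wnt4 in β-cells. The list held 41 genes, chosen by name from the methionine cycle, transsulfuration, polyamine synthesis, methionine salvage, serine synthesis and the folate cycle, together with DNA methyltransferases and related aminotransferases. It was drawn up with earlier results of these data known. Of these, 40 had a probe among the 22911 named genes on the arrays, and 35 were bright enough to be tested, as were 13648 named genes in all. Each gene was represented by its brightest probe over all arrays. The 4 Wnt4βKO samples carried Pdx1CreER, a tamoxifen-dependent Cre under the Pdx1 promoter, and Wnt4 fl/fl alleles, whereas the 3 control samples were Wnt4 fl/fl without Cre. Both groups received tamoxifen by gavage (50 mg/mL solution) at 4 to 5 weeks of age, and islets were taken from male mice at 7 weeks. Because the controls lacked Cre, an effect of Cre and one of Wnt4 loss cannot be told apart. Pdx1 is active in β-cells and in some other islet cells, and whole islets were profiled, so fewer cells of a type and less RNA per cell cannot be told apart either.

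In the methionine cycle, methionine is joined to ATP to give S-adenosylmethionine, the methyl donor of most cellular methyltransferases. The S-adenosylhomocysteine left after methyl transfer is split to homocysteine, which is either methylated back to methionine with help of the folate cycle or passed through transsulfuration to cysteine. Serine feeds both routes, since it is the partner of homocysteine in transsulfuration and the main source of folate one-carbon units, and decarboxylated S-adenosylmethionine supplies polyamine synthesis. Islet preparations usually hold some acinar cells, the exocrine cells that secrete digestive enzymes and that also run these pathways.

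The arrays and the label check can be summarised briefly. Between 45.5% and 49.0% of non-control spots were well above background on each array, and no spot was saturated. Wnt4 itself differed by -0.49 ± 0.17 (SE) on the log2 scale, Wnt4βKO minus control, with overlapping groups and an unadjusted limma p of 0.0232. As a check of the tissue, 14 of 15 listed β-cell markers, 9 of 10 α-cell markers and all 7 δ- and PP-cell markers were bright enough to be tested. All 29 tested acinar markers of 33 listed were well above background on every array, so acinar RNA was present throughout. Their mean log2 level was 13.05 to 13.20 in control and 11.88 to 12.87 in Wnt4βKO arrays, every Wnt4βKO array being below every control array, and 11 of the 29 were lower at an unadjusted p under 0.05 with none higher. Of 9 tested duct markers, 2 were lower by that measure. Other marker means also separated the groups. Duct markers averaged 8.412 to 8.542 on control and 7.813 to 8.408 on Wnt4βKO arrays. For β-cell markers these means were 10.97 to 11.06 and 10.83 to 10.90, with a median difference of -0.003. The δ- and PP-cell markers were instead higher, at 10.98 to 11.22 and 11.26 to 11.34. The α-cell means overlapped. Immune markers averaged 8.74 on Wnt4βKO replicate 4 and 7.70 to 7.96 on the other arrays. All arrays shared 1 slide, with control replicate 4 and Wnt4βKO replicates 1 and 2 in row 1 and the others in row 2.

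Promoters are shown first for Cbs, Ahcy and Ahcyl1, the lower members whose p stayed under 0.05 whichever single array was left out. Sequences are those of RefSeq on mouse assembly GRCm38.p6, 250 bases before to 50 bases after an annotated start, written 5′ to 3′ on the strand of the gene. Capitals mark CACGTG, an E-box motif. Cbs lies on the minus strand (chr17:31637156-31637455), as do Ahcy (chr2:155074448-155074747) and the Ahcyl1 start shown (chr3:107696172-107696471), 1 of 3 annotated for that gene.
Cbs: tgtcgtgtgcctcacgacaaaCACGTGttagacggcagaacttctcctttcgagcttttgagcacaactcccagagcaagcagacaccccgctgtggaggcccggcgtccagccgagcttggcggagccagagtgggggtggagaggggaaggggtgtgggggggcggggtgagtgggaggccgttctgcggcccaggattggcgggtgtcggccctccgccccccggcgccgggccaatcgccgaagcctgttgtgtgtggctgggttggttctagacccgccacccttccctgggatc
Ahcy: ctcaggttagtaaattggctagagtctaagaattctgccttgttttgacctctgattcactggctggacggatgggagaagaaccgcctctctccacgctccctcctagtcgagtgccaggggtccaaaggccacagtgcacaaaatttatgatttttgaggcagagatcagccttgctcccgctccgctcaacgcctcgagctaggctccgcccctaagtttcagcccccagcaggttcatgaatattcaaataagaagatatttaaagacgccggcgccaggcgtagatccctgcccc
Ahcyl1: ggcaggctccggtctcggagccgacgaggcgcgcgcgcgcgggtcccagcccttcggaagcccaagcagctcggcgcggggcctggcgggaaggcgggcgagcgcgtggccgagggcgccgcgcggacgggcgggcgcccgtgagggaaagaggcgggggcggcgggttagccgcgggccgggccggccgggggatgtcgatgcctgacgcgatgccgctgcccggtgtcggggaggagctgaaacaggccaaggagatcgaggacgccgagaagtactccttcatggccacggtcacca
The letters CACGTG, searched on both strands, stood at position -229 relative to the start in Cbs. Of the 8 lower members described below, 6 had a promoter entry (all but Cth and Mat1a), and the letters were in Cbs and in 1 of 3 starts of Dnmt3a but not in Ahcy, Ahcyl1, Gnmt or Apip. They were found in 4 of the 33 members with a promoter entry, which also include Sms and Enoph1, and in 8.09% of all 27025 genes with an entry (7.15% of 32851 promoters). TGATGNAA, the core that ATF4 dimers bind in amino acid response genes, was found on either strand in 1 of the 33 members, Got1, and in 4.51% of all genes (3.97% of promoters). The 49 member promoters held a median of 19 CG dinucleotides, against 7 over all promoters. Ahcy, with 13, and Cbs, with 22, lay to either side of the members' median, and the Ahcyl1 start shown, with 46, was far above it. The Ahcyl1 starts not shown had fewer, 29 and 23.

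Lower values predominated among the tested enzyme genes, but no member passed the adjusted threshold. At a Benjamini-Hochberg adjusted limma p under 0.05, 0 of 35 members were called, where 4 of 26151 probes (0.0153%) were called over the whole array. The smallest adjusted p of a member was 0.494. At an unadjusted limma p under 0.05, 8 of the 35 members (22.9%) were lower in Wnt4βKO islets, namely Cbs, Ahcyl1, Ahcy, Cth, Mat1a, Gnmt, Apip and Dnmt3a. Over all tested probes this share was 3.63%, and over the brightest probes of all tested genes it was 4.43%. Since the list was chosen with earlier results of these data known, the shares describe the list and do not test it. Sdsl was the only one of the 35 (2.86%) that was higher by the same measure, against 3.33% of all tested probes. Groups that did not overlap were found for 4 members that were lower (Cbs, Ahcyl1, Ahcy and Cth), with 3.69% over all probes, and for 1 that was higher (Shmt2), with 3.52% over all probes. In all, 26 of the 35 differences (74.3%) were negative, against 49.1% of all tested probes, and the median difference of the members was -0.14, against 0.0027 over all tested probes. The mean log2 level of the 35 members was 8.06, 7.98 and 7.99 on the control arrays and 7.83, 7.88, 7.96 and 7.80 on the Wnt4βKO arrays. Every Wnt4βKO array thus had a lower mean than every control array, by a narrow margin for replicate 3. Cth was the one tested member not above background on all 7 arrays, and without it 7 members were lower and 3 were lower without overlap. With the acinar marker mean as a covariate, 2 of the 35 were lower, against 1.12% of all tested probes in that fit, and the median difference was -0.02. The number of lower members also depended on single arrays, being 4 without control replicate 4, and 5 without Wnt4βKO replicate 1 or without replicate 4.

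**Figure D1:**
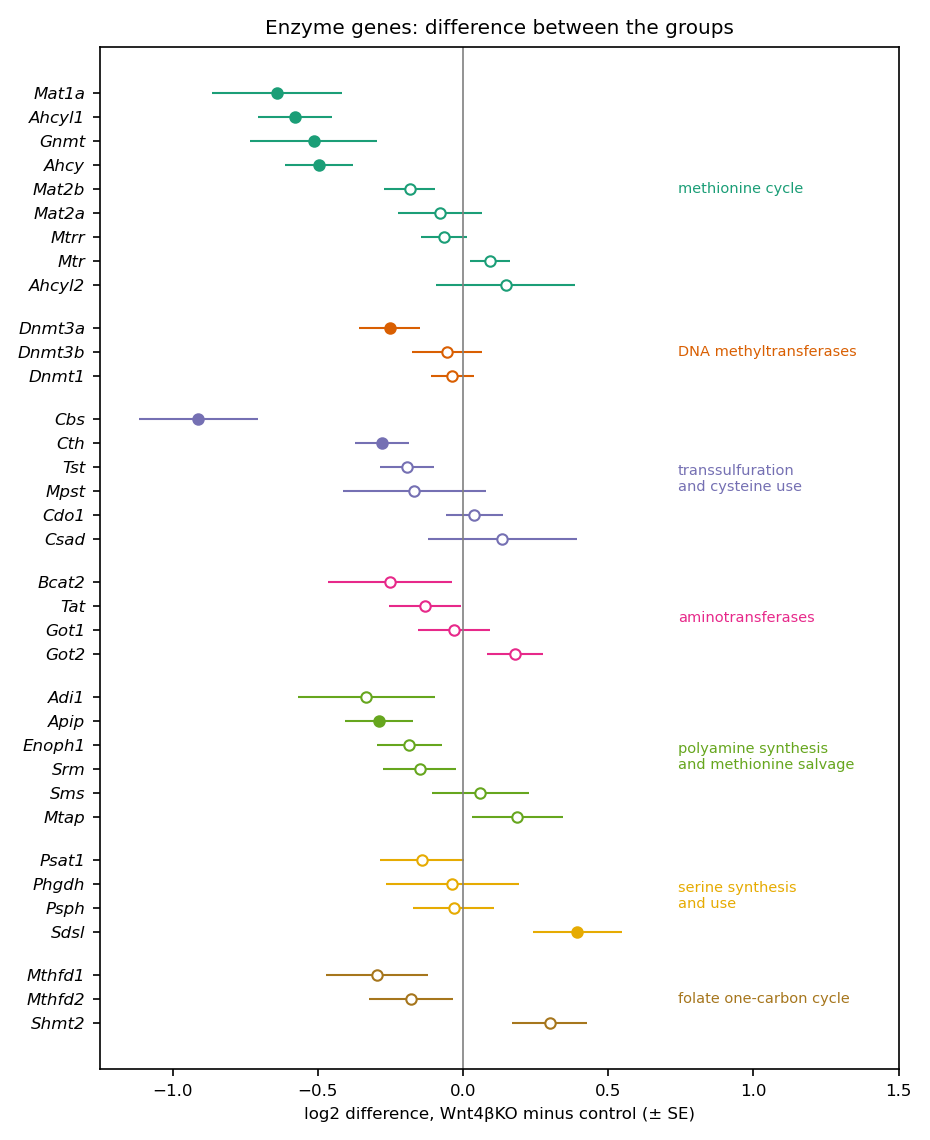
Log2 difference, Wnt4βKO minus control, for each of the 35 tested enzyme genes (horizontal axis, with the standard error as a bar), grouped by pathway. Filled points have an unadjusted limma p under 0.05. Of these 9 points, 8 lie to the left of 0, the furthest being Cbs at -0.91, and Sdsl lies to the right at 0.39.

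The methionine cycle held the most lower members, 4 of its 9 tested genes, and none higher. S-adenosylhomocysteine hydrolase, encoded by Ahcy, removes the by-product of methyl transfer. Its log2 signal was 6.70, 6.73 and 6.64 on the control arrays and 6.00, 6.47, 6.23 and 6.08 on the Wnt4βKO arrays. The control values lay within 0.1 of each other and above all 4 Wnt4βKO values. The difference was -0.50 ± 0.12 (SE), with an unadjusted limma p of 0.0035 and an adjusted p of 0.495, and the p stayed under 0.05 when any single array was left out. Ahcy is a dim probe, and the constant of 50 that was added to every signal before taking logs shrinks differences of dim probes. With an offset of 0 its difference was -1.27, and with the scanner's processed signal it was -1.44.

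Ahcyl1 encodes a relative of this hydrolase that is known as a regulator of the inositol trisphosphate receptor, a calcium channel, rather than for hydrolase activity. Control arrays gave 7.71, 7.71 and 7.64, and Wnt4βKO arrays 6.99, 7.29, 6.84 and 7.31, again with all control values above all Wnt4βKO values. The difference was -0.58 ± 0.13 (SE), 67.0% of the control level, with an unadjusted limma p of 0.0023, the smallest among the members, and an adjusted p of 0.494. It too kept a p under 0.05 without any single array. However, the 3 probes of Ahcyl1 disagreed. The other 2, both dimmer, differed by -0.12 and 0.04 (limma p-values of 0.331 and 0.628), while averaging all its probes gave -0.22. Ahcyl2, the close relative of Ahcyl1, differed by 0.15 ± 0.24 (SE).

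Mat1a, the S-adenosylmethionine synthetase gene best known from liver, had log2 signals of 7.87, 8.11 and 7.31 in control islets. In Wnt4βKO islets it had 6.85, 7.02, 7.53 and 7.08, and Wnt4βKO replicate 3 lay above control replicate 4. The difference was -0.64 ± 0.22 (SE), with an unadjusted limma p of 0.0232 (adjusted p 0.651). That p was above 0.05 without control replicate 2 (-0.60) or 3 (-0.46) and without Wnt4βKO replicate 1 (-0.54) or 2 (-0.61). Mat2a, which encodes the synthetase of most tissues outside the liver, differed by -0.08 ± 0.14 (SE), and Mat2b, its regulatory subunit, by -0.18 ± 0.09 (SE) with a limma p of 0.0729.

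Gnmt encodes glycine N-methyltransferase, which uses up S-adenosylmethionine when it is plentiful. Its values were 8.24, 8.10 and 8.39 on the control arrays and 7.31, 7.96, 8.19 and 7.46 on the Wnt4βKO arrays. Wnt4βKO replicates 1 and 4 were the low ones, and replicate 3 lay within the control range. The difference of -0.51 ± 0.22 (SE) had an unadjusted limma p of 0.0493 (adjusted p 0.715). With the acinar marker mean as a covariate it turned to 0.05, with a p of 0.777. The unadjusted p was under 0.05 in 2 of the 7 fits that left out an array, those without Wnt4βKO replicate 2 or 3, and without the others the difference lay between -0.58 and -0.37. The enzymes that turn homocysteine back into methionine gave smaller values. Mtr, methionine synthase, differed by 0.09 ± 0.07 (SE), and Mtrr, the reductase that reactivates it, by -0.07 ± 0.08 (SE). Bhmt and Bhmt2, which use betaine or a related methyl donor for the same step, reached the background criterion on no array.

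**Figure D2:**
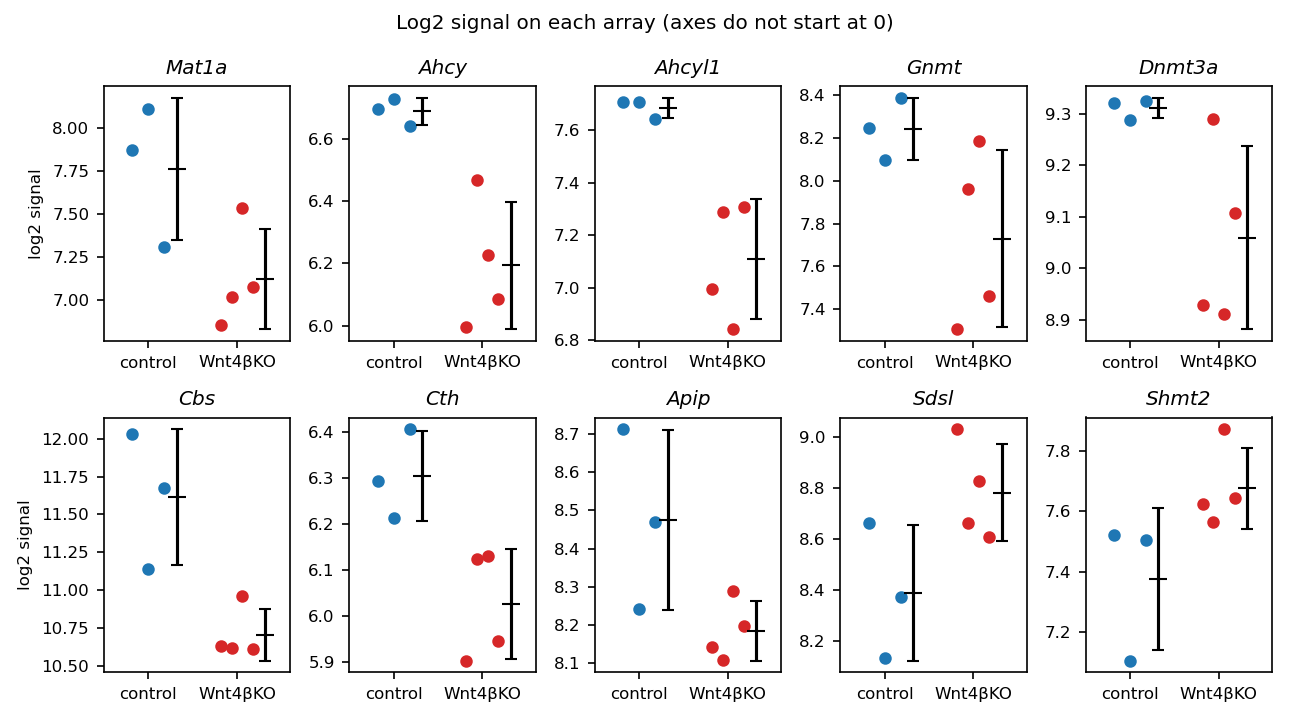
Log2 signal (vertical axes, which do not start at 0) of the 10 members with an unadjusted limma p under 0.05 or with groups that do not overlap. Points are arrays, 3 control in blue and 4 Wnt4βKO in red, and the black bar is the mean with its SD. For Cbs, Ahcy, Ahcyl1 and Cth all red points lie below all blue points, for Shmt2 all lie above, and for the other 5 the groups overlap.

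Of the DNA methyltransferases, which spend S-adenosylmethionine on cytosine, 1 of 3 was lower at an unadjusted p under 0.05. Dnmt3a, a de novo methyltransferase, had control values of 9.32, 9.29 and 9.32. The Wnt4βKO values were 8.93, 9.29, 8.91 and 9.11, with replicate 2 at the level of the controls. The difference of -0.25 ± 0.11 (SE) had an unadjusted limma p of 0.0461 (adjusted p 0.709), and the p was above 0.05 without any array other than Wnt4βKO replicate 2, where the difference lay between -0.27 and -0.20. A second Dnmt3a probe differed by -0.05. Dnmt1, the maintenance enzyme, differed by -0.04 ± 0.07 (SE), and Dnmt3b by -0.05 ± 0.12 (SE).

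Both enzymes of the transsulfuration route from homocysteine to cysteine were lower at an unadjusted p under 0.05, and neither passed the adjusted threshold. Neither kept its unadjusted call with the acinar marker mean as a covariate. In that fit Cbs was -0.73 ± 0.31 (SE, limma p of 0.0542) and Cth -0.11 ± 0.11 (SE, limma p of 0.368). Without the covariate they were -0.91 ± 0.21 and -0.28 ± 0.09 (SE), so the SE of Cbs also grew. Cbs, cystathionine β-synthase, condenses homocysteine with serine and showed the largest difference of the 35 members. It had log2 signals of 12.03, 11.14 and 11.68 in control islets and of 10.63, 10.62, 10.96 and 10.61 in Wnt4βKO islets, all Wnt4βKO values being below the lowest control. The means were 11.62 ± 0.45 (SD, n = 3) and 10.71 ± 0.17 (SD, n = 4). The Cbs difference was -0.91 ± 0.21 (SE), 53.2% of the control level, with an unadjusted limma p of 0.0027 and an adjusted p of 0.494. Without any single array it stayed between -1.16 and -0.70, with a p under 0.05.

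Cth encodes cystathionine γ-lyase, which releases cysteine in the next step. It was dim, being well above background on all 3 control arrays but not on Wnt4βKO replicates 1 and 4, so that it entered the test through the group in which it was brighter. Its log2 signals were 6.29, 6.21 and 6.41 in control and 5.90, 6.12, 6.13 and 5.95 in Wnt4βKO islets, the first and last of these at background. The difference was -0.28 ± 0.09 (SE), with an unadjusted limma p of 0.0175 (adjusted p 0.631), and was -0.23 with a p of 0.068 without control replicate 4. Since its lowest values were at background, the size of the difference is not well determined. None of the 4 genes that use cysteine or its sulfur reached an unadjusted p under 0.05. Tst, thiosulfate sulfurtransferase, differed by -0.19 ± 0.09 (SE) with a limma p of 0.0741, and its relative Mpst by -0.17 ± 0.25 (SE). Cdo1, which oxidises cysteine, and Csad, which leads on to taurine, differed by 0.04 ± 0.10 (SE) and 0.13 ± 0.26 (SE).

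None of the 4 tested aminotransferase genes reached an unadjusted p under 0.05. Got1 and Got2, the cytosolic and mitochondrial aspartate aminotransferases, differed by -0.03 ± 0.12 (SE) and 0.18 ± 0.10 (SE). Tat, tyrosine aminotransferase, differed by -0.13 ± 0.12 (SE), and Bcat2, the mitochondrial branched-chain enzyme, by -0.25 ± 0.21 (SE). Its cytosolic counterpart Bcat1 was above background on 1 array only and was not tested.

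In polyamine synthesis and methionine salvage, 1 of 6 tested genes was lower. Apip, a dehydratase of the salvage pathway that recovers methionine from the by-product of polyamine synthesis, gave 8.71, 8.24 and 8.47 in control and 8.14, 8.11, 8.29 and 8.20 in Wnt4βKO islets. Wnt4βKO replicate 3 lay just above control replicate 3. The difference of -0.29 ± 0.12 (SE) had an unadjusted limma p of 0.0403 (adjusted p 0.692). The p stayed under 0.05 without control replicate 3 or Wnt4βKO replicate 3, and without any other array the difference was between -0.30 and -0.17. The salvage genes Adi1 and Enoph1 differed by -0.33 ± 0.24 (SE) and -0.18 ± 0.11 (SE), whereas Mtap, which starts the salvage route, differed by 0.19 ± 0.16 (SE). Srm and Sms, which make spermidine and spermine, differed by -0.15 ± 0.13 (SE) and 0.06 ± 0.17 (SE). Amd1, which supplies decarboxylated S-adenosylmethionine, had no probe of its own name. Its near-identical copy Amd2, not a member, had 4 probes, and the arrays may not separate the copies. These probes disagreed. The brightest differed by -0.02 (limma p of 0.898), and the dimmer ones by -0.37, -0.53 and -0.27 (limma p-values of 0.197, 0.0169 and 0.0485).

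Of the 4 tested serine genes, 0 were lower and 1, Sdsl, was higher at an unadjusted p under 0.05. As the only such gene among the 35 members, Sdsl is no more than the array-wide share of 3.33% would give, and its p was above 0.05 in 7 of the 13 settings that kept all arrays. Phgdh, Psat1 and Psph encode the successive enzymes from glycolysis to serine, and they differed by -0.04 ± 0.23 (SE), -0.14 ± 0.14 (SE) and -0.03 ± 0.14 (SE). Sdsl encodes a serine dehydratase-like enzyme. Its log2 signals were 8.66, 8.13 and 8.37 in control and 9.03, 8.66, 8.83 and 8.61 in Wnt4βKO islets, and control replicate 2 lay among the Wnt4βKO values. The difference of 0.39 ± 0.15 (SE), 1.31-fold, had an unadjusted limma p of 0.0357 (adjusted p 0.681). It was 0.27 with a p of 0.128 without control replicate 3, and the p was also above 0.05 without control replicate 4 (0.38) and without Wnt4βKO replicate 1 (0.30) or 3 (0.38). Sds, serine dehydratase, stayed at background on all arrays and was not tested.

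None of the 3 tested folate genes reached an unadjusted p under 0.05. Shmt2, the mitochondrial serine hydroxymethyltransferase that moves a one-carbon unit from serine to folate, had values of 7.52, 7.10 and 7.50 in control and of 7.62, 7.56, 7.87 and 7.64 in Wnt4βKO islets. All Wnt4βKO values were above all control values, by a margin of less than 0.1. The difference was 0.30 ± 0.13 (SE) with an unadjusted limma p of 0.0517 (adjusted p 0.726), and it was 0.16 without control replicate 3, the lowest array. Without control replicate 2 (0.38) or 4 (0.36) the p was under 0.05. Shmt1, its cytosolic form, stayed at background on all arrays. Mthfd1 and Mthfd2, the cytosolic and mitochondrial enzymes that interconvert the folate one-carbon forms, differed by -0.29 ± 0.18 (SE) and -0.18 ± 0.15 (SE).

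The 25 tested members other than the 10 given by array had differences between -0.33 and 0.19, of which 18 were negative, and limma p-values between 0.0729 and 0.878. The sign of 16 of these 25 changed under at least 1 of 20 alternative settings. Of the 14 members with more than 1 tested probe, 11 had the same sign on every tested probe. Within the slide rows, 16 of the 35 tested members were lower in both rows and 5 were higher in both, and the remaining members had opposite signs.

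**Figure D3:**
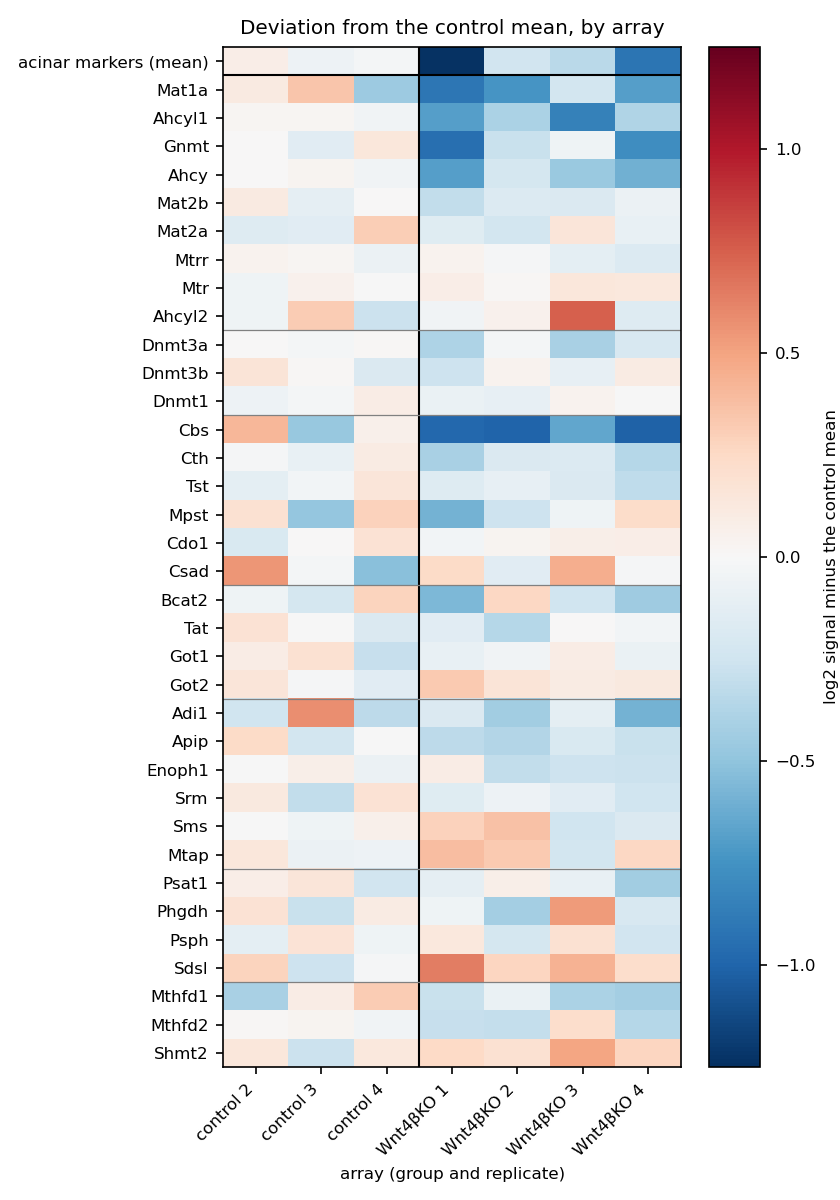
Deviation of the log2 signal from the control mean (colour, blue for lower and red for higher) for the 35 tested members (rows, grouped by pathway) on each of the 7 arrays (columns), with the mean of the 29 acinar markers in the top row. Cbs, Ahcy, Ahcyl1, Mat1a and Cth are among the members that are blue on all 4 Wnt4βKO arrays. The acinar row is darkest on Wnt4βKO replicates 1 and 4.

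The acinar marker mean was lower on every Wnt4βKO array than on every control array, and the fit was repeated with it. The duct, β-cell and δ- and PP-cell marker means also separated the groups, but a fit with them was not run. When the acinar mean of each array was added to the limma fit as a covariate, the members lower at an unadjusted p under 0.05 were Ahcyl1 and Enoph1, and none was higher. Over all 26151 probes 293 (1.12%) were lower and 288 higher in that fit. Of all 35 tested members, 23 were closer to 0 in that fit and 12 further from it, among them Enoph1, which went from -0.18 to -0.40, and Ahcyl2, from 0.15 to 0.46. The 8 members named as lower, which had been picked for low values, were all closer to 0. Ahcyl1 changed least, to -0.57 with a p of 0.0279. Ahcy was -0.23 with a p of 0.0987, and Mat1a -0.39 with a p of 0.278. Apip at -0.23 and Dnmt3a at -0.14 had limma p-values of 0.250 and 0.406. Of the genes with higher values, Sdsl was 0.30 and Shmt2 0.38, with limma p-values of 0.252 and 0.102. Because no Wnt4βKO array reached the acinar mean of any control array, the covariate and the group can be told apart only in part. The arrays with the least acinar signal, Wnt4βKO replicates 1 and 4, were also the 2 lowest of the 4 in 3 of the 8 lower members and in 8 of all 35 members, an order found in 14.7% of all tested probes.

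**Figure D4:**
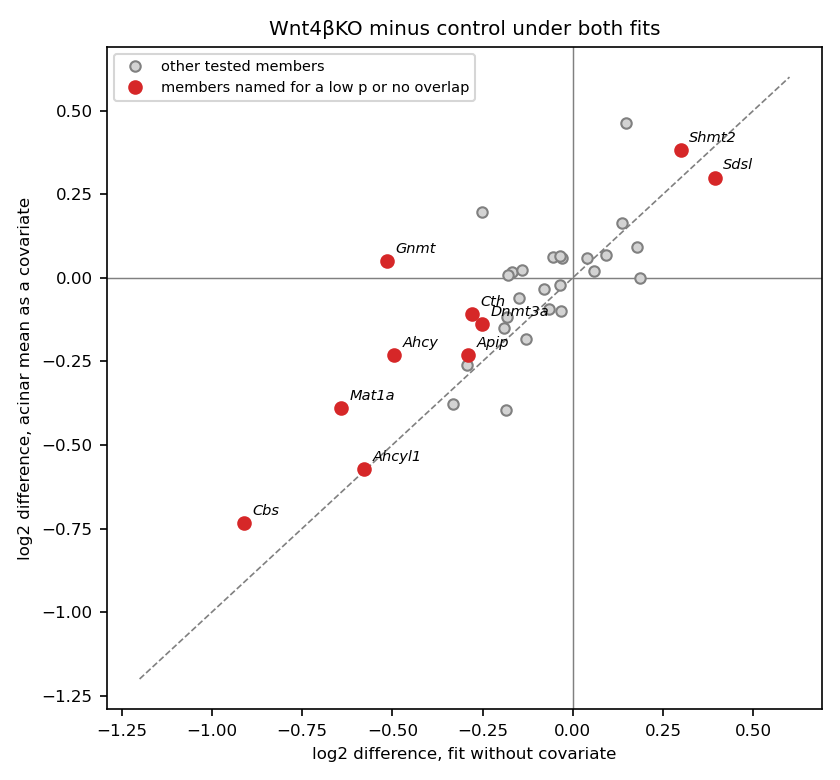
Log2 difference, Wnt4βKO minus control, of each tested member in the fit without a covariate (horizontal axis) and with the acinar marker mean as a covariate (vertical axis). The dashed line marks equal values. Ahcyl1 lies on the line at about -0.57 in both, Cbs lies somewhat above it, and Gnmt lies above 0 on the vertical axis.

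The 10 members given by array had the same sign in both rows of the slide. They had been picked on these same arrays, so this is no independent check. Where the groups did not overlap, the same sign in both rows was certain. Within row 1, which has 1 control array, and within row 2, Cbs differed by -1.05 and -0.80, Ahcyl1 by -0.50 and -0.63, Ahcy by -0.41 and -0.56, and Cth by -0.39 and -0.21. Mat1a (-0.37 and -0.69), Gnmt (-0.75 and -0.35), Dnmt3a (-0.22 and -0.30) and Apip (-0.34 and -0.23) were also lower in both rows. Sdsl was higher in both, by 0.48 and 0.32, and Shmt2 by 0.09 and 0.45. Whether the immune signal of Wnt4βKO replicate 4 had a part in any value was not tested, and without that array Cbs was -0.88 and Ahcy -0.47.

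Genes that surround these enzymes, taken from lists of folate, methyl-using, polyamine, glutathione and amino acid transport genes, showed a similar count. These lists too were chosen with earlier results of these data known. Of 68 listed genes 59 were tested, and 12 (20.3%) were lower and 2 (3.39%) higher at an unadjusted limma p under 0.05, against 3.63% and 3.33% of all tested probes, with a median difference of -0.06. The share of higher genes was thus that of the whole array. None passed the adjusted threshold. Without control replicate 2, 6 were lower and 0 higher. In the folate list of 16 tested genes the lower ones were Ggh, which trims folate polyglutamates (-0.83 ± 0.25 SE), Aldh1l1, a formyltetrahydrofolate dehydrogenase (-0.73 ± 0.28 SE), and Slc25a32, the mitochondrial folate carrier (-0.38 ± 0.12 SE). Of 10 genes for methyl users and glycine cleavage, Gamt, which makes creatine with S-adenosylmethionine (-1.13 ± 0.38 SE), Aldh7a1, which can oxidise betaine aldehyde (-0.42 ± 0.11 SE), and Sardh, sarcosine dehydrogenase (-0.41 ± 0.13 SE), were lower. Sarcosine is the product of Gnmt.

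Among 13 glutathione and sulfur genes, Ggt1 and Chac1, which degrade glutathione, and Gsr, which reduces it, were lower by -0.84 ± 0.24, -0.77 ± 0.25 and -0.39 ± 0.14 (SE). Slc38a2, a transporter of small neutral amino acids, had the smallest p of these lists, 0.003 by limma (adjusted p 0.494). It gave 8.32, 8.83 and 8.31 in control and 7.59, 7.62, 8.08 and 7.56 in Wnt4βKO islets, without overlap. Slc6a9, a glycine transporter, and Slc7a8, a carrier of large neutral amino acids, were lower by -0.91 ± 0.32 and -0.40 ± 0.15 (SE), making 3 of 10 transport genes. The pair counted as higher was Slc6a6, the taurine transporter (0.42 ± 0.16 SE), and Mri1, a salvage isomerase that acts between Mtap and Apip (0.36 ± 0.14 SE). With the acinar mean as a covariate, 0 of the 59 had an unadjusted p under 0.05 in either direction. Calls were also few over the whole array in that fit, with 293 of 26151 probes (1.12%) lower and 288 higher. The count of 0 therefore does not set these genes apart from the array.

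The amino acid response driven by ATF4 is known to raise Phgdh, Psat1, Shmt2, Mthfd2 and many transporters, so its other targets were set beside the members. Of 23 tested genes of 27 listed, 3 were lower at an unadjusted limma p under 0.05 (Nupr1 by -1.33 ± 0.45, Chac1 as above and Eif4ebp1 by -0.43 ± 0.17, SE) and 1 was higher (Sesn2, 0.50 ± 0.12 SE). These are 13.0% and 4.35% of the list, against 3.63% and 3.33% of all tested probes, so that the higher count was near that of the whole array. Their median difference was -0.10. Atf4 itself differed by -0.36 with a p of 0.072. Nupr1 was -0.19 and Sesn2 0.21 with the acinar mean as a covariate, and 0 of the 23 then had a p under 0.05. Since 1.12% of all tested probes were lower in that fit, this count does not set the list apart either.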

How the data were processed

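Islet RNA of 7 samples (3 control, 4 Wnt4βKO), each with its own animal code in the labels, was measured on single-colour Agilent arrays, with 50 ng labelled per array per the labels. The study states that a further control sample was left out because it failed quality control. The authors deposited 1 scanner file per array, made with Feature Extraction 12.0.1.1 per the file headers, holding spot intensity on a linear scale, not normalized between arrays. Following the study's methods, normexp with an offset of 50 and quantile normalization were used. The median signal was first corrected by normexp. Control spots were then dropped and flagged spots set to missing (65 values among tested probes, none in a member's probe used here). After that the values were quantile normalized on the log2 scale, and repeated spots were averaged. A probe was tested if at least 3 of 7 arrays had it well above background, which left 26151 of 56605. The groups were compared without covariates in limma 3.58.1 (lmFit, eBayes; R 4.3.3), and two-sided p-values were adjusted over all tested probes by the Benjamini-Hochberg method. Every printed p without a further name is the unadjusted limma p. The number of arrays limits the precision.

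Probes were named by accession through RefSeq genes of GRCm38.p6, which named 32994 probes (58.3%) and 66 probes of the members, of which 52 were tested. Each gene took its brightest probe. The members, pathway and marker lists were chosen with earlier results of these data known. Values are given by array for members with an unadjusted p under 0.05 or with groups that do not overlap, and pathway genes with such a p are named. Replicate numbers were not taken as pairs in the main fit. Deviations of same-numbered arrays correlated at -0.13, 0.23 and -0.0069, and those of differently numbered arrays at -0.31 to 0.16. So few values cannot exclude a pairing, and the study describes its controls as littermates. Another deposited table of log2 values did not match the arrays and was not used. Alternatives were other background corrections, scalings, filters, variance models, blocks, the acinar mean as a covariate, the mean over probes and each array left out. Summaries used Python 3.11.15 with pandas 2.3.3.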

Additional observations from a re-analysis of the deposited data

Results flagged for a closer look

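For 3 of the 35 tested members, 1 of the 4 Wnt4βKO arrays stood far from the other 3, with a gap to its neighbour that took a larger share of the group's range than Dixon's 95% critical value allows. Chance gives such a result in about 1 in 20 groups. In Cbs the share was 0.939, because Wnt4βKO replicate 3 had a log2 signal of 10.96 while the other Wnt4βKO arrays had 10.61 to 10.63. Without that array the Cbs difference was -0.999. In Enoph1 it was 0.871, with Wnt4βKO replicate 1 at 8.80 and the others at 8.41 to 8.46. In Mthfd2 it was 0.884, with Wnt4βKO replicate 3 at 8.10 and the others at 7.52 to 7.58. The control group, with 3 arrays, was not examined in this way.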

How the results depend on the processing

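No member had an adjusted p under 0.05 under any of the 20 alternatives. The 8 lower members became 5 with the processed signal scaled to the 75th percentile or with median scaling, 2 with the acinar mean as a covariate, and 4 to 8 without single arrays. The share of all tested probes that were lower also changed. It was 3.63% in the main fit, 3.89% with the processed signal, 2.08% with median scaling and 1.12% with the acinar covariate. Without single arrays it was 2.72% to 4.26%. The count of 1 higher member became 0 at an offset of 0, with the processed signal, median scaling, trended and robust variance, the replicate block, slide row as a block or the acinar covariate, 2 with array weights or the mean over probes, and 0 to 3 without single arrays. Groups that did not overlap downwards rose from 4 members to 7 with cyclic loess and were 5 to 9 without single arrays, where fewer arrays have to be ordered. Upwards the count of 1 became 0 with median scaling and 1 to 3 without single arrays. The members' median difference of -0.14 was -0.19 without background correction, -0.20 at an offset of 0, -0.021 with the acinar covariate, and -0.162 to -0.094 without single arrays.

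Of the other pathway genes, 6 were lower with the replicate block, 0 with the acinar covariate and 6 to 12 without single arrays. The 2 higher ones became 0 at an offset of 0, with the processed signal, median scaling or the acinar covariate, 1 with trended and robust variance or the mean over probes, 4 without a filter or with the replicate block, and 0 to 4 without single arrays. Gnmt changed sign to 0.049 with the acinar covariate, the cause of which was not tested beyond that fit. With the replicate block 6 members were lower, and Cth, Gnmt, Dnmt3a, Apip and Sdsl had a p above 0.05. Whether the replicate numbers pair the samples is not known.

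Dim probes such as Ahcy and Cth are limited by their signal over background. Blocks for slide and scan were not run because all arrays shared 1 of each, nor were the authors' table values, which did not match the scanner files.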
